A study of Mus musculus with 2 samples.

Results

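The miR-181 family of the mouse consists of 6 microRNA (miRNA) genes, Mir181a-1, Mir181a-2, Mir181b-1, Mir181b-2, Mir181c and Mir181d, which lie in pairs in 3 genomic clusters. They were picked by their gene names in the GENCODE M21 annotation and are 6 of the 2202 miRNA genes counted. All 6 reached at least 10 counts in each library, as did 392 genes in all, which are called measured below. The counts came from small-RNA sequencing (size range below 30, per the labels) of total RNA from the left cerebral cortex of 2 males of the strain B6CASTF1/J, each 25 days old. B6CASTF1/J mice are first-generation hybrids of C57BL/6J and CAST/EiJ, both inbred, and the labels name no treatment. The mice form 1 group with biological replicates 1 and 2 and 1 library per mouse, so the data allow a description of the levels and a comparison of the libraries with each other. The labels number the mice separately but share a donor entry.

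A miRNA gene is transcribed as part of a longer RNA, from which a hairpin is cut out. The hairpin is trimmed to a short duplex, and the strand from its left arm (5p) or its right arm (3p) guides the Argonaute protein to target mRNAs. Pairing runs mainly through the seed, bases 2 to 8 of the mature miRNA, so miRNAs with the same seed can share targets. The miR-181 family is known from lymphocyte development, where miR-181a sets the sensitivity of T-cell receptor signalling, and in the brain from neurons and astrocytes.

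The mature sequences are shown first because they bear on which genes reads can tell apart. They were taken from RefSeq (build GRCm38.p6), which gave both arms for all 6 genes and hairpins for 5 of them, not for Mir181c. The 5p arms had 4 distinct sequences over the 6 genes. Capitals mark the seed.
miR-181a-5p (Mir181a-1 and Mir181a-2): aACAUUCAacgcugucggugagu
miR-181b-5p (Mir181b-1 and Mir181b-2): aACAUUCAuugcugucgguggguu
miR-181c-5p (Mir181c): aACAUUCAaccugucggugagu
miR-181d-5p (Mir181d): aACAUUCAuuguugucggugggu

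The seed ACAUUCA was the same in all 4 sequences, and 0 mature miRNAs of other genes in the table carried it, out of 1738 mature entries. Outside the seed the sequences fell into a pair of types. With positions counted from 1 at the 5′ end, miR-181a-5p and miR-181b-5p differed by A9U, C10U and A21G, and miR-181b-5p is longer by its last base. miR-181b-5p and miR-181d-5p differed by C12U alone within their common length. miR-181a-5p and miR-181c-5p shared 22 bases in an alignment with 1 gap base and no mismatch. Mir181a-1, Mir181a-2 and Mir181c are therefore called the a and c genes, and Mir181b-1, Mir181b-2 and Mir181d the b and d genes.

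The 3p arms were distinct in all 6 genes and had 4 seeds, none of which another gene in the table shared. They are shown because this arm differs between the numbered copies, whose 5p arms are the same. Capitals again mark the seed.
miR-181a-1-3p: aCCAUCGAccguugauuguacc
miR-181a-2-3p: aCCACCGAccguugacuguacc
miR-181b-1-3p: cUCACUGAacaaugaaugcaa
miR-181b-2-3p: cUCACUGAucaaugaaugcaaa
miR-181c-3p: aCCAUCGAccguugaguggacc
miR-181d-3p: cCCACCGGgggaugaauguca

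miR-181a-1-3p and miR-181a-2-3p differed by U5C and U16C, and miR-181b-1-3p and miR-181b-2-3p by A9U within their common length. The seed CCAUCGA was shared by the 3p arms of Mir181a-1 and Mir181c, and the seed UCACUGA by those of Mir181b-1 and Mir181b-2. The deposited counts are per hairpin gene and do not separate the arms.

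The hairpins of the numbered copies show how far the copies run alike. Capitals mark the longest stretch that a hairpin shares base for base with its copy.
Mir181a-1: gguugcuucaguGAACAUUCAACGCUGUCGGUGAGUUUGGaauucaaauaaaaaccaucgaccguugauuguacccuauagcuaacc
Mir181a-2: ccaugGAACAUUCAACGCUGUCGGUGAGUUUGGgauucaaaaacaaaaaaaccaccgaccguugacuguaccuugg
Mir181b-1: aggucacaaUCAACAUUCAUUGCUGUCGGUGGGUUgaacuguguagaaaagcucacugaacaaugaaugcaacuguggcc
Mir181b-2: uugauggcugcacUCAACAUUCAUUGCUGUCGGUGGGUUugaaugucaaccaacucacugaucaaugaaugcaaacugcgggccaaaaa

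The stretch shared by the a copies was 28 bases and reached 4 bases beyond the 3′ end of miR-181a-5p. The stretch shared by the b copies was 26 bases and ended at the last base of miR-181b-5p. The 5p sequences of Mir181c and Mir181d occurred whole in no other hairpin of the table, and their longest runs in common with one were 12 and 11 bases. Of the mapped reads, 48.6% (replicate 1) and 52.8% (replicate 2) matched more than 1 locus and were not given to genes. The levels of the 4 numbered copies therefore leave out whole reads of their 5p arms that match both copies, and are uncertain. How much of the miR-181 signal this removed was not tested.

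The 3 clusters are on different chromosomes (mm10 positions, GENCODE M21). Mir181a-1 (ENSMUSG00000065565.1, chromosome 1, 137966455 to 137966541) and Mir181b-1 (ENSMUSG00000065458.1, 137966639 to 137966718) lie on the plus strand, 97 bases apart, in an intron of the non-coding RNA gene Gm4258. Mir181b-1 also lies in an exon of the lincRNA gene A430106G13Rik, which overlaps the end of Mir181a-1, and both lie opposite an intron of the non-coding Gm26936. Mir181a-2 (ENSMUSG00000065423.1, chromosome 2, 38852735 to 38852810) and Mir181b-2 (ENSMUSG00000065578.1, 38853830 to 38853918) are 1019 bases apart on the plus strand, opposite an intron of Nr6a1, which encodes an orphan nuclear receptor. Mir181a-2 begins 365 bases past the annotated end of Nr6a1os, an RNA antisense to Nr6a1, and Mir181b-2 also lies opposite an exon of Gm44144. Mir181c (ENSMUSG00000065483.2, chromosome 8, 84178873 to 84178961) and Mir181d (ENSMUSG00000076338.1, 84178716 to 84178787) are 85 bases apart on the minus strand, in an intron of Nanos3, a gene known for its role in germ cells. All 6 positions were the same in RefSeq.

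The libraries held 2388379 counts (replicate 1) and 4447390 counts (replicate 2) on the genes' own strand. Levels are counts per 1000000 of these (CPM), with the mean ± SD of n = 2 libraries. In CPM, 3 counts amount to 1.26 (replicate 1) and 0.675 (replicate 2). Reads carried no stated molecular identifiers and may be copies of a molecule, so this floor and all intervals describe counting error alone. Of the listed neuron miRNAs, 9 of 12 genes were measured, with a summed level of 87793 and 74939 CPM in replicates 1 and 2. Those not measured were Mir124a-1, Mir124a-2 and Mir124a-3 (mean 2.90, 0.112 and 1.11 CPM). Reads that match more than 1 locus were not given to genes. The levels of numbered copies in this list may thus be too low, and the neuron sum is uncertain. How many reads this removed was not tested. Mir132 made up most of the sum and was lower in replicate 2 (60392 and 37793 CPM), while Mir128-1, the next, was higher (10802 and 17606 CPM). Astrocyte miRNAs (3 of 3 measured, led by Mir23b and Mir29a) summed to 24977 and 36586 CPM, oligodendrocyte miRNAs (3 of 3, Mir219a-2 and Mir338) to 2726 and 3556 CPM, and vessel miRNAs (3 of 3, Mir126a and Mir143) to 16755 and 28009 CPM. The choroid plexus miRNA Mir204 stood at 507 and 718 CPM. Leukocyte miRNAs (5 of 5, led by Mir150 and Mir146) summed to 2306 and 2493 CPM, and red-cell miRNAs (3 of 3, led by Mir451a and Mir486) to 134 and 144 CPM. The liver miRNA Mir122 stood at 54.0 and 57.6 CPM, and the muscle list (1 of 4 measured, Mir1a-1 and Mir133b at 0 in both libraries) summed to 13.8 and 22.3 CPM. Since miR-181 is made in several of these cell types, the part of each in its level was not tested, and in bulk tissue fewer cells of a type and less RNA per cell cannot be told apart.

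With library totals as the scale, the family's share of the counts differed between the libraries by less than its counting SE. Its genes spanned a wide range of levels. The counts of the 6 genes summed to 20976 (replicate 1) and 39365 (replicate 2). That was 0.878% of the library (95% exact Clopper-Pearson interval 0.866 to 0.890%) and 0.885% (0.876 to 0.894%). The log2 ratio of the summed level, replicate 2 over replicate 1, was 0.01 with a counting SE of 0.012. With TMM or DESeq2 scaling the ratio of each gene was lower by more than that SE. For Mir181a-1 it was 0.44 with library totals, 0.39 with TMM and 0.38 with DESeq2. The ratio of the summed level was not computed with these scalings, but the same shift applies to it. It would then lie below 0 by more than its counting SE, so its small size holds for library totals only. Mean levels ran from 17.2 CPM for Mir181a-2 to 3166 CPM for Mir181b-2, around a median of 1443 CPM, against a median of 121 CPM over the 392 measured genes.

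Mir181b-2, one of the copies that make miR-181b-5p, had the most counts of the family in both libraries. It had 8159 counts in replicate 1 (3416 CPM) and 12966 in replicate 2 (2915 CPM), and ranked 54th of all genes by mean CPM. Mir181d had 6836 counts (2862 CPM) and 11431 counts (2570 CPM). Mir181c had 4763 counts (1994 CPM) and 11906 counts (2677 CPM). These 3 genes held nearly all counts of the family, and both values of Mir181b-2 lay above both values of Mir181d, while the values of Mir181d and Mir181c overlapped.

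Mir181a-1 formed a middle level, with 1114 counts in replicate 1 (466 CPM) and 2822 in replicate 2 (635 CPM). Mir181b-1 had 83 counts (34.8 CPM) and 126 counts (28.3 CPM). Mir181a-2 was the lowest in both libraries, with 21 counts (8.79 CPM) and 114 counts (25.6 CPM). Values did not overlap between Mir181c and Mir181a-1 (4.24-fold between means), Mir181a-1 and Mir181b-1 (17.5-fold) or Mir181b-1 and Mir181a-2 (1.83-fold), although the libraries of Mir181a-2 alone were 2.92-fold apart. With 2 libraries no exact test between genes can reach 0.05, so this order is a description. It holds for counts given to single genes, because the 4 numbered copies lack reads that match both copies.

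**Figure D1:**
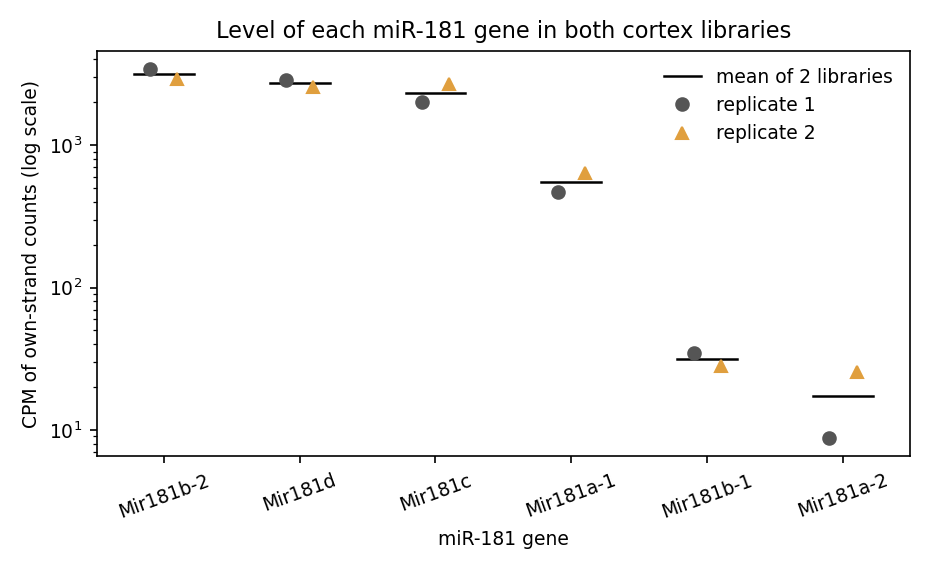
Level of each miR-181 gene as CPM of own-strand counts (log scale) in replicate 1 (circles) and replicate 2 (triangles), with the mean of the 2 libraries as a line. Mir181b-2, Mir181d and Mir181c lie between 1994 and 3416 CPM, Mir181a-1 near 550 CPM, and Mir181b-1 and Mir181a-2 below 35 CPM. Levels of the numbered copies leave out reads that match both copies.

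Hairpin length touched the top of this order. Per 100 bases of annotated hairpin, Mir181d (72 bases) stood at 3773 ± 287 CPM and Mir181b-2 (89 bases) at 3557 ± 398 CPM, so the order of these genes turned round and their libraries overlapped. Mir181c followed at 2624 ± 543 CPM per 100 bases, Mir181a-1 at 633 ± 137, Mir181b-1 at 39.4 ± 5.67 and Mir181a-2 at 22.6 ± 15.7, in the same order as before. This scaling was chosen after the data were seen, and CPM per gene is used elsewhere because a small-RNA read covers a mature miRNA and not the hairpin.

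By cluster, the Mir181c/Mir181d pair held most of the family's counts. It took 55.3% in replicate 1 (interval 54.6 to 56.0%) and 59.3% in replicate 2 (58.8 to 59.8%). The Mir181a-2/Mir181b-2 cluster took 39.0% (38.3 to 39.7%) and 33.2% (32.8 to 33.7%). The Mir181a-1/Mir181b-1 cluster took 5.71% (5.40 to 6.03%) and 7.49% (7.23 to 7.75%). The order of the clusters was the same in both libraries. The chromosome 1 and 2 clusters consist of the numbered copies, which lack reads that match several loci, so their shares are uncertain.

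Within the clusters the counts given to the a and b genes stood in opposite order on chromosomes 1 and 2. On chromosome 1, Mir181a-1 had 13.4 times the counts of Mir181b-1 in replicate 1 (interval 10.7 to 17.0) and 22.4 times in replicate 2 (18.7 to 27.0). On chromosome 2 the b gene had more counts: Mir181b-2 had 389 times the counts of Mir181a-2 in replicate 1 (254.0 to 628) and 114 times in replicate 2 (94.6 to 138). On chromosome 8 Mir181d had 1.44 times the counts of Mir181c in replicate 1 (1.38 to 1.49) and 0.960 times in replicate 2 (0.936 to 0.985). The ratio within each cluster thus differed between the libraries beyond counting error for chromosomes 1, 2 and 8, and on chromosome 8 the leading gene changed.

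Between copies with the same 5p sequence the counts were far apart as well. Mir181b-2 had 98.3 times the counts of Mir181b-1 in replicate 1 (79.2 to 124) and 103 times in replicate 2 (86.3 to 124), so this ratio did not differ beyond counting error. Mir181a-1 had 53.0 times the counts of Mir181a-2 in replicate 1 (34.5 to 86.0) and 24.8 times in replicate 2 (20.5 to 30.1). These ratios rest on the reads that were given to a single copy, and leave out those that match both in the stretch printed in capitals.

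**Figure D2:**
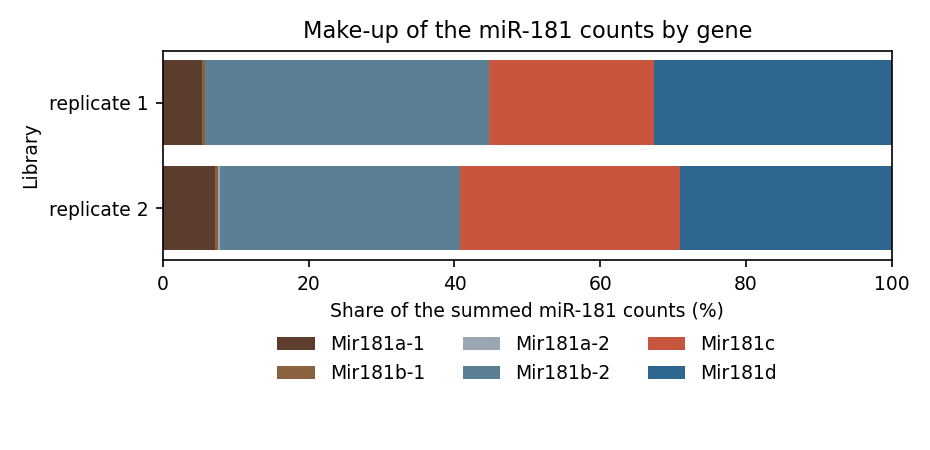
Share of each gene in the summed miR-181 counts, in percent, for replicate 1 and replicate 2 (stacked bars, each adding to 100%). Mir181b-2, Mir181c and Mir181d fill most of both bars, and Mir181c takes 22.7% in replicate 1 and 30.2% in replicate 2.

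Replicate 2 and replicate 1 differed in which miR-181 genes they favoured. In each cluster the ratios of its genes had opposite signs, although that of Mir181b-1 did not pass the test. A two-sided exact binomial test of the counts, given the library totals and with Benjamini-Hochberg adjustment over all 392 measured genes at 0.05, called 5 of the 6 genes, where it called 56.9% of all measured genes. In replicate 2, 3 were higher (34.2% of measured genes were) and 2 were lower (22.7%). The median log2 ratio was 0.13 over the 6 genes and 0.06 over all measured genes, and the median size of the log2 ratio was 0.36 and 0.34. The family thus spread about as far as the measured genes as a whole.

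The a and c genes were the 3 higher ones. Mir181c was 1.34-fold higher in replicate 2 (log2 ratio 0.42, counting SE 0.025, adjusted p = 8.34e-68 in the exact test). Mir181a-1 was 1.36-fold higher (log2 ratio 0.44, SE 0.051, adjusted p = 2.88e-18, exact test). Mir181a-2 was 2.92-fold higher (log2 ratio 1.54, SE 0.34, adjusted p = 1.98e-06, exact test) on 21 and 114 counts. Among the b and d genes, Mir181b-2 was lower (log2 ratio −0.23, SE 0.020, adjusted p = 4.02e-28, exact test), as was Mir181d (log2 ratio −0.16, SE 0.022, adjusted p = 8.48e-12, exact test). Mir181b-1 had a log2 ratio of −0.29 with an SE of 0.20 and did not pass (adjusted p = 0.217, exact test). In each of the 3 clusters the a or c gene thus had a ratio above 0 and the b or d gene a ratio below 0. TMM or DESeq2 scaling kept these signs but is no check of them. Each scaling moves the ratios of all genes by the same amount, which was smaller than any of these ratios in size.

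**Figure D3:**
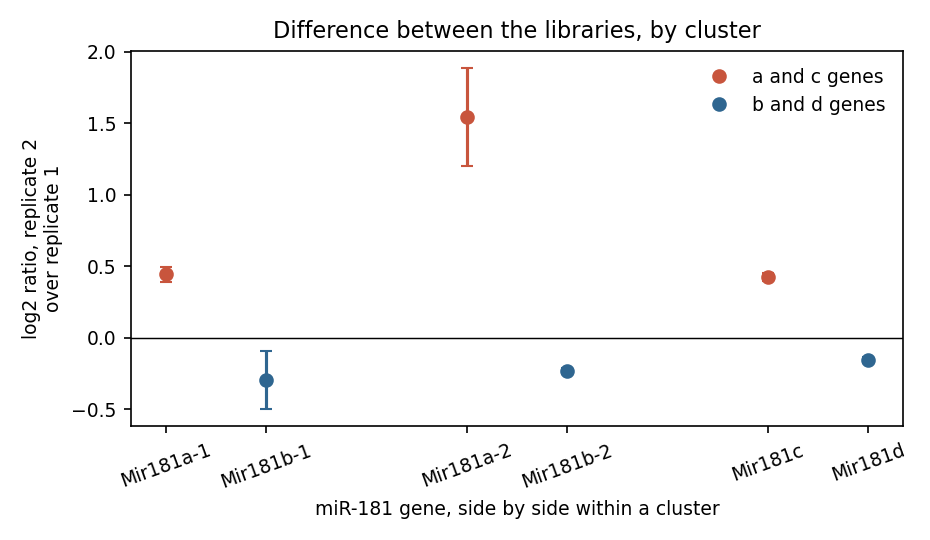
log2 ratio of CPM, replicate 2 over replicate 1, for each miR-181 gene (points) with its counting SE (bars), placed side by side by cluster and coloured by sequence type. In each cluster the a or c gene is above 0 (0.42 to 1.54) and the b or d gene below 0 (−0.29 to −0.16).

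Summed over genes, the a and c genes took 28.1% of the miR-181 counts in replicate 1 (interval 27.5 to 28.7%) and 37.7% in replicate 2 (37.2 to 38.2%). The b and d genes took the remaining 71.9% and 62.3%. In CPM, the a and c genes went from 2470 to 3337 and the b and d genes from 6313 to 5514, so the sums differed in opposite directions. Both groups hold numbered copies, whose counts leave out reads that match several loci. The shares and sums are therefore uncertain, and need not be those of the mature miRNAs by which the groups are named. The grouping by sequence type was made after the counts had been seen, and no test was made of the split itself.

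These tests compare the 2 libraries, not conditions, and cover counting error alone. Among the 242 genes that reached 100 counts in replicate 1 and also in replicate 2, the SD of the log2 ratio was 0.56, and the ratios of 5 miR-181 genes were smaller than that, while that of Mir181a-2 was larger. Mir181a-2 and Mir181b-1 had fewer counts than these genes, and so a larger counting error. When the spread between the libraries was allowed for (biological coefficient of variation 0.311, edgeR), edgeR's exact test called 0 of the 6 genes and 0.765% of the measured genes. At an unadjusted p under 0.05 it picked out 1 of the 6, Mir181a-2 (p = 0.0375, edgeR exact test). Its dispersion comes from the same pair of libraries, and since each mouse gave 1 library, effects of the mouse and of the library cannot be told apart. The libraries also differed in their unmapped reads, 31.6% in replicate 1 and 18.2% in replicate 2. What part this had in the ratios was not tested.

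**Figure D4:**
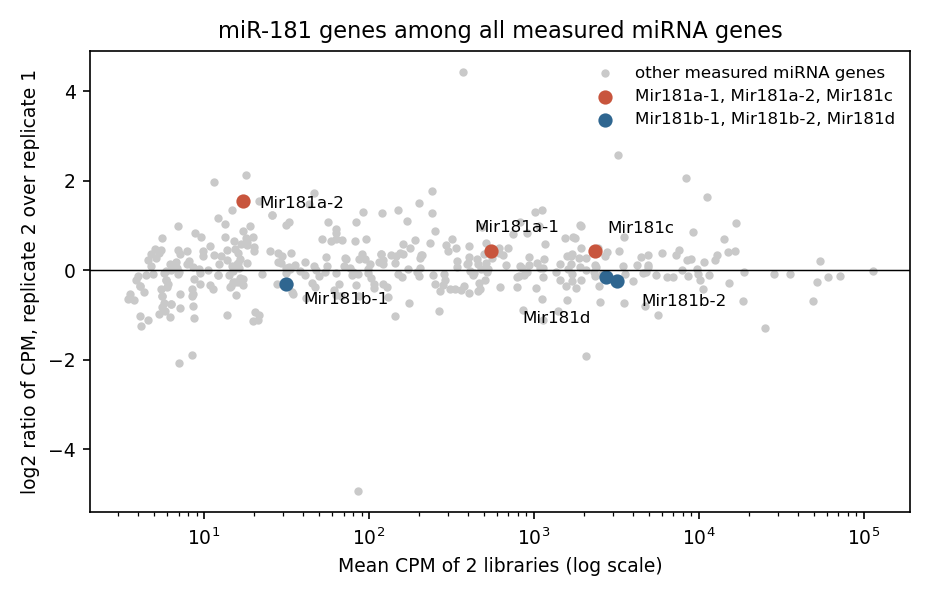
log2 ratio of CPM, replicate 2 over replicate 1, against mean CPM (log scale) for the 392 measured miRNA genes (grey), with the a and c genes and the b and d genes of miR-181 in colour. Mir181a-2 lies at 1.54, and the other miR-181 genes lie between −0.29 and 0.44, among grey points of like level.

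No reads were counted on the opposite strand of the miR-181 genes. All 6 genes had 0 counts in both libraries in the column read from its values as the opposite strand, which allows up to 3 counts for each. The counts of both strands together equalled the own-strand counts. Other genes were not compared in this column, so the absence cannot be read as particular to miR-181. The 6 genes include Mir181b-2, which lies opposite an annotated exon of Gm44144.

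The genes nearest to each miR-181 gene in level over both libraries, by distance of log2(CPM + 1), were sought among measured genes outside the family. Mir181c was nearest to Mir409 (1963 and 2730 CPM, distance 0.036) and Mir337 (2027 and 2866 CPM), both of the imprinted Dlk1-Dio3 domain. Mir181d was nearest to the neuronal Mir138-2 (2637 and 2498 CPM, distance 0.13) and to Mirlet7f-2. Mir181b-2 had no gene closer than Mir335 (3661 and 3481 CPM, distance 0.27), followed by Mir100. Mir181a-1 was nearest to Mir329 (498 and 608 CPM, distance 0.11) and Mir28a, Mir181b-1 to Mir494 (34.3 and 28.3 CPM, distance 0.017) and Mir3057, and Mir181a-2 to Mir677 (8.37 and 21.4 CPM, distance 0.26) and Mir5121. With 2 libraries such likeness describes levels only.

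A pair of other families with several loci is set beside miR-181. The miR-30 family (6 genes) held 1.95% of the counts (replicate 1) and 2.60% (replicate 2), a log2 ratio of 0.41 with a counting SE of 0.0079. The miR-29 family (4 genes) held 0.742% and 1.35%, a log2 ratio of 0.87 with an SE of 0.012. The leading gene took 35.9% of the mean level of the miR-181 family (Mir181b-2), 56.0% of miR-30 (Mir30d) and 88.3% of miR-29 (Mir29a). In miR-30, 4 genes were higher and 1 lower past the exact binomial test, and in miR-29 2 were higher and 0 lower at an adjusted p of 0.05 (4 of 4 genes measured, log2 ratios −0.30 to 1.00), where 34.2% of all measured genes were higher and 22.7% lower. Whether the families differ in these respects was not tested, and all 3 hold numbered copies that lack reads matching several loci.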

How the data were processed

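Per the readme files, the authors' deposited read counts per miRNA gene were made on mm10 with GENCODE M21. For the aligner and the counter, the name is not given in the sources used here. Each file has 4 leading rows that name no gene, which entered neither library sizes nor tests, and 3 columns read from the values as both strands, own strand and opposite strand. The own-strand column was used, also for CPM.

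The 392 genes that reached 10 counts in both libraries entered the exact conditional binomial test given the library totals. edgeR's quasi-likelihood test has no contrast with 1 group, so edgeR 4.0.16 (R 4.3.3) gave TMM factors, a common dispersion and an exact test, and DESeq2 1.42.0 size factors, as alternatives. The binomial test was first tried on simulated counts with counting error only, which lack the further spread between the libraries. The edgeR and DESeq2 steps were not simulated. Cluster genes lie within 10 kb of each other. Sequences were compared with Biopython 1.88; SciPy 1.17.1, NumPy 2.4.6 and pandas 2.3.3 were used. Members, lists and tests were chosen with earlier results of these data known. Named genes are the 6 members, the 2 measured genes outside the family nearest to each in level, and the 2 most abundant of each marker list except muscle. The comparison families and unmeasured genes of the neuron and muscle lists are named as well. So are genes annotated at the clusters and miRNA genes nearest to them on the chromosome, the latter looked up after the counts had been seen. The reference is C57BL/6J, and mismatching CAST/EiJ reads were not tested.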

Additional observations from a re-analysis of the deposited data

How the results depend on the processing

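The family share of 0.882% became 0.956% with both strands counted together and 0.994% with library totals that leave out the most abundant gene, because both totals are smaller. Likewise Mir181d stood at 2944 and 3061 CPM under these settings, and Mir181b-2 at 3567 CPM without the most abundant gene. Per 100 bases of hairpin, a scaling added after the data were seen, levels were 632.7 (Mir181a-1), 39.4 (Mir181b-1), 22.6 (Mir181a-2), 3557 (Mir181b-2), 2624 (Mir181c) and 3773 (Mir181d), which put Mir181d above Mir181b-2. With 1 library left out at a time the family share ran from 0.878 to 0.885%. The binomial test called 5 of 6 genes with count minimums of 1 and 10, both strands, TMM, DESeq2 size factors or totals without the top gene, and 4 of the 4 that had 100 counts in each library, where it called 194 of all 242 such genes. edgeR's exact test called 0. No log2 ratio of a single miR-181 gene changed sign under the settings run. This is no check of the signs, because the settings moved each ratio by less than its own size. The ratio of the family sum was not computed under them, but the shift of TMM or DESeq2 scaling would put it below 0. No paired analysis was possible because there is 1 group. Depth limits Mir181a-2 most, with 21 counts in replicate 1.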

Other observations

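The nearest measured miRNA genes were looked up after the counts had been seen. The Mir181c/Mir181d pair lies 29.6 kb from Mir23a, with Gm25110 nearer at 21.8 kb but at 0 counts in both libraries. Mir23a is the first gene of the miR-23a cluster and stood at 6408 CPM (replicate 1) and 8737 CPM (replicate 2), a log2 ratio of 0.45 (adjusted p = 3.14e-240, exact binomial test). Mir181c, at 0.42, had a ratio of the same sign and Mir181d, at −0.16, of the other. The nearest measured miRNA genes to the chromosome 1 and 2 clusters were far off and low: Mir1231 had 24 and 30 counts, and Mir5129 had 42 and 65.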
